A study of Mus musculus with 6 samples.

Results

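The 38 genes described here are potassium channels and their partner subunits in sensory neurons: pore-forming subunits of voltage-gated, K2P and calcium- or sodium-activated channels and inward rectifiers, together with beta and KChIP subunits. They were chosen by name as a family, and all 38 were rows of the deposited count table of 27998 genes. Their levels were read in each mouse, in each experimental group and in each neuron population set apart by marker genes, none of which was a potassium channel gene. The table's values were unique molecular identifier (UMI) counts, 1 per captured mRNA molecule, for single cells of dorsal root ganglia, the ganglia that hold the cell bodies of somatosensory neurons.

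The deficient group was mouse 654 (female) and mouse 657 (male), both Ttpa-/- and 6 months old, whose diet lacked vitamin E. The supplemented group was mouse 670 (male) and mouse 671 (female), also Ttpa-/- and 6 months old, whose diet had vitamin E added. The wild type group was mouse 698 (female) and mouse 699 (male), Ttpa+/+ and 5 months old, on a basal diet. Ttpa encodes the alpha-tocopherol transfer protein of the liver, which returns vitamin E to the blood, and its loss leads to vitamin E deficiency unless the vitamin is supplied. Genotype went with age and diet in every comparison with wild type and could not be told apart from them. How the Ttpa allele was made is not stated in the labels used.

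The 6 libraries held 12538785 to 19383933 UMIs each, with medians of 2499.5 to 4959 UMIs per cell, and mice 654 and 670 had the shallowest libraries. After filters and removal of doublets 21024 cells were used, of which 20986 passed a gate for neurons. Any pair of libraries shared 9 to 23 cell barcodes, at most 0.7% of the smaller library. Ttpa itself had 4 and 5 UMIs in the neurons of deficient mice, 1 and 4 in supplemented mice and 0 and 0 in wild type mice, too few to check the genotype. Markers of other cell types were present in the gated neurons of every mouse: the 4 satellite glia markers, all detected, summed to 408 and 312 UMIs per 1000000 UMIs (CPM) in deficient mice, 549 and 755 CPM in supplemented mice and 430 and 298 CPM in wild type mice. In 204 cells gated on glia markers, with a median of 1795.5 UMIs, Kcnb2 stood at 424 CPM and Kcnab2 at 253 CPM, so these cells also held RNA of the members and gave no level for cells without them, and low levels below are given as measured and not read as expression.

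Potassium channels let potassium leave the cell and so set the resting potential, end the action potential and limit repetitive firing. Voltage-gated (Kv) channels are tetramers of pore subunits whose gating is tuned by beta subunits, KChIPs and electrically silent pore subunits, while K2P channels carry a background leak and other families open with calcium, sodium or G protein subunits. In sensory ganglia the mix of these channels differs between large myelinated touch and muscle afferents and small unmyelinated C fibre neurons.

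Gates on marker UMIs placed 7213 of the gated neurons (34.4%) in exactly 1 of 13 populations, which are named here by their marker genes. Pvalb-gated (599 cells), Ntrk2-gated (309), Calb1-gated (196) and Ntrk3-gated (517) neurons also carried Nefh, the heavy neurofilament of myelinated neurons, and are called the 4 Nefh-gated populations. Bmpr1b/Smr2-gated neurons (353) carried both Calca and Nefh. The 7 populations with little Nefh, called C-type here, were Mrgprd-gated (1168), Mrgpra3-gated (773), Sst/Nppb-gated (1006), Th-gated (1551), Sstr2/Adcyap1-gated (260), Chrna3-gated (141) and Fgg/Tac1-gated (271) neurons. Trpm8/Foxp2-gated neurons (69) were too few in some mice for a fit. The gates were set after marker levels in these cells had been seen, and 88 cells that passed several gates were left out.

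Markers outside the gates fitted most of the names and not all. Runx3, a transcription factor of proprioceptive neurons, stood at 207 CPM in Pvalb-gated neurons, and Il31ra, an itch cytokine receptor, at 111 CPM in Sst/Nppb-gated neurons. Mrgpra3-gated neurons held 5913 CPM of Calca, the neuropeptide CGRP, but Mrgprb4 and Mrgprx1, receptors of the same family, were at only 4 and 2 CPM there.

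Against the other populations 34 of the 38 members could be tested, in 12 populations and so 408 member and population pairs. Each population was set against the others in 2 ways, because they answer different questions. The log-mean difference sets it against the mean of the log levels of the other 11 populations, and is large for a gene that is near 0 in most of them. The summed difference sets it against the UMIs of all other fitted populations pooled. On the log-mean scale 179 pairs (43.9%) were called higher and 115 (28.2%) lower at an adjusted p under 0.05 (edgeR quasi-likelihood test with Benjamini-Hochberg adjustment, mouse as a block), where 29.5% and 22% of the 99864 pairs of all 8322 tested genes were called. On the summed scale 130 pairs (31.9%) were higher and 211 (51.7%) lower, against 25.7% and 30% of all pairs. The share of higher among the calls was thus 60.9% on the log-mean scale and 38.1% on the summed scale. All 130 pairs higher on the summed scale were also higher on the log-mean scale and all 115 lower on the log-mean scale were also lower on the summed scale, while 18 pairs were higher on the log-mean scale and lower on the summed scale. Every one of the 34 tested members was called higher in at least 1 population on the summed scale.

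**Figure D1:**
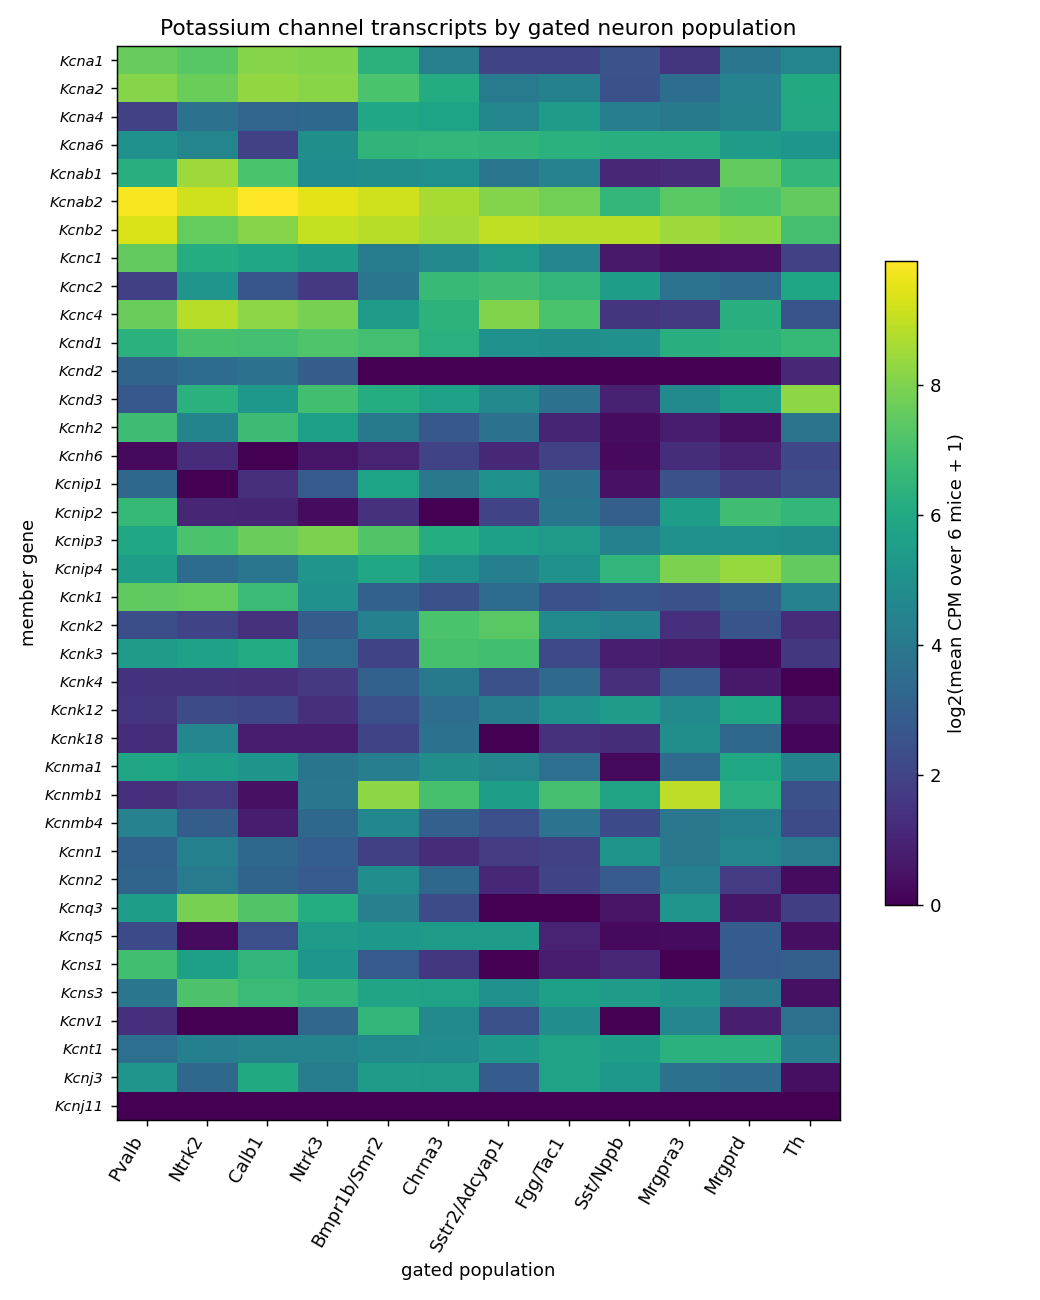
Levels of the 38 potassium channel genes (rows) in 12 marker-gated neuron populations (columns). Colour is log2(mean CPM over 6 mice + 1). The Nefh-gated populations stand at the left, where Kcna1, Kcns1 and Kcnh2 are brightest, and Kcnip2, Kcnd3 and Kcnmb1 are brightest in other columns.

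The Nefh-gated and C-type populations were compared by their means, as a description with no test. For 9 of the 38 members the lowest mean of the 4 Nefh-gated populations was above the highest mean of the 7 C-type populations: Kcna1, Kcna2, Kcnab2, Kcnc1, Kcnd2, Kcnh2, Kcnk1, Kcnq3 and Kcns1. The share of all genes with such an order was not computed, so the count has no background beside it. Trpm8/Foxp2-gated neurons, too few for a fit, were left out of this comparison. Kcna2 stood there at 343 CPM (56 UMIs), Kcnab2 at 596 CPM (115 UMIs), Kcnk1 at 59.6 CPM and Kcnc1 at 74.6 CPM. Kcnd2 (23.7 CPM) and Kcnh2 (22.7 CPM) had 4 UMIs each. All of these lay above the gene's lowest Nefh-gated mean, while Kcna1, Kcnq3 and Kcns1 lay below theirs. Averaged over populations, Kcna1 was at 224 CPM in the Nefh-gated and 9.69 CPM in the C-type populations, Kcns1 at 73.2 and 2.46 CPM, and Kcnq3 at 124 and 6.12 CPM. Kcna4 and Kcna6 had the opposite order, Kcna4 with 8.09 CPM in the Nefh-gated and 33.4 CPM in the C-type populations and Kcna6 with 21.3 and 69.0 CPM. The means of the other members overlapped between these populations. The Nefh gate took neurons with more Nefh UMIs, and median UMIs per cell ranged from 2371 to 8140 between populations, so depth differed between them too, and its part in these differences was not tested.

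The 250 bases before the transcription start are shown for 4 of the 9 members named above, Kcna2, Kcnc1, Kcnh2 and Kcns1. In each of them every Nefh-gated mean lay above every C-type mean, with Trpm8/Foxp2-gated neurons left out. In those neurons Kcna2, Kcnc1 and Kcnh2 broke the order, as given above. That order did not mean a high level throughout: Kcnh2 means ran from 21.3 to 114 CPM over the Nefh-gated populations, with a highest C-type mean of 13.1 CPM. Sequences are from RefSeq on GRCm38.p6, 5′ to 3′ on the gene's strand, with capitals for the GC box GGGCGG (or its complement CCGCCC), a site bound by Sp-family factors, and for the E-box CAGCTG, which reads the same on both strands. The 2 motifs can share 1 base and did not in these windows. The window of Kcna2 is chr3:107101317-107101566 (plus strand), Kcnc1 at chr7:46396218-46396467 (plus strand), Kcnh2 at chr5:24329592-24329841 (minus strand) and Kcns1 at chr2:164171114-164171363 (minus strand). The windows of Kcna2 and Kcnh2 fall within the annotated span of the gene, ahead of the RefSeq start, and those of Kcnc1 and Kcns1 lie upstream of the gene.
Kcna2: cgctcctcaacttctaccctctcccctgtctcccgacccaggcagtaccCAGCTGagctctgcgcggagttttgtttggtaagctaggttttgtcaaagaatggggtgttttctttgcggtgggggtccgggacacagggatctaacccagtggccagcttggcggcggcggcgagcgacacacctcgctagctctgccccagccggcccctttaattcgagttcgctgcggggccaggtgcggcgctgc
Kcnc1: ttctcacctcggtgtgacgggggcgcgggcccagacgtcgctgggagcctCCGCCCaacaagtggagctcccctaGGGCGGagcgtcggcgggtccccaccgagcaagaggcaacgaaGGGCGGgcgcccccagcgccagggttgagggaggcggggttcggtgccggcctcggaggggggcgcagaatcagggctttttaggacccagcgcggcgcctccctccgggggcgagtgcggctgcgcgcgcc
Kcnh2: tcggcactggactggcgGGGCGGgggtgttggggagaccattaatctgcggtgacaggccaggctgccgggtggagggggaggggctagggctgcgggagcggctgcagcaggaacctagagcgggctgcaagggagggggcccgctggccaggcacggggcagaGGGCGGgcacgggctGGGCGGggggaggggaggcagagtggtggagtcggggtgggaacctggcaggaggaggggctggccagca
Kcns1: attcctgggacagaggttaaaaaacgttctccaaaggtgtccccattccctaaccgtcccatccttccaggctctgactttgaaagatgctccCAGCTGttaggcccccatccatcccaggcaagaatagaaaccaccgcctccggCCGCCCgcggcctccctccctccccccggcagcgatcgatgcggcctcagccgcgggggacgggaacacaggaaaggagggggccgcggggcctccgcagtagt

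The 4 windows shared no single motif: the GC box stood in Kcnc1 and Kcnh2 (3 copies each) and Kcns1 (1 copy), and the E-box in Kcna2 and Kcns1 (1 copy each). RefSeq promoters were matched for 29 of the 38 members. A GC box stood in 16 of these 29 and in 32.9% of 27025 promoters of all genes, and an E-box in 9 of 29 and in 12.8% of all promoters. These are matches of letters within the windows and were not tied to any measured binding.

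Among the Kv1 pore subunits, which open at low voltage and sit beside the nodes of myelinated axons, Kcna1 and Kcna2 followed each other. Kcna1 (Kv1.1) was lowest at 181, median 279 and highest at 304 CPM over the 6 mice in Ntrk3-gated neurons, against a mean of 71.2 CPM in the other populations. Its log-mean difference there was 3.78 ± 0.10 (SE; adjusted p = 4.39e-67) and its summed difference 2.46 ± 0.12 log2 units. The same gene averaged 276 CPM in Calb1-gated neurons, which overlapped the Ntrk3-gated range, and had 8 UMIs (1.91 CPM) in Mrgpra3-gated neurons. Kcna2 (Kv1.2) was at 250, 293 and 419 CPM (lowest, median and highest) in Calb1-gated neurons and averaged 286 CPM in Ntrk3-gated neurons, while Sst/Nppb-gated neurons held 4.56 CPM. In Calb1-gated neurons the differences of Kcna2 were 2.57 ± 0.11 (log-mean; adjusted p = 8.34e-45) and 1.58 ± 0.12 (summed). Over the 12 population means, which share the same 6 libraries, the log levels of Kcna1 and Kcna2 had a Pearson r of 0.951.

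The other Kv1 pore subunits were arranged differently. Kcna4 (Kv1.4), a fast-inactivating A-type subunit, was at 53.9, 64.1 and 69.2 CPM in Th-gated neurons, with differences of 1.87 ± 0.11 (log-mean; adjusted p = 1.49e-32) and 1.76 ± 0.10 (summed). It was lower in Pvalb-gated neurons, at 2.83 CPM (log-mean difference -2.85 ± 0.34). Kcna6 (Kv1.6) averaged 94.1 CPM in Chrna3-gated neurons (log-mean difference 1.07 ± 0.22) and was lower in Calb1-gated neurons, where 7 UMIs gave 2.85 CPM (-3.47 ± 0.36). Its Chrna3-gated range (70.8 to 155 CPM) overlapped those of 5 other populations, among them Sstr2/Adcyap1-gated neurons with a mean of 88.4 CPM. The cytoplasmic beta subunits bind Kv1 channels and can speed their inactivation. Kcnab2 (Kvβ2) was highest in Calb1-gated neurons at 960 CPM and lowest in Sst/Nppb-gated neurons at 92.7 CPM, and its log levels had an r of 0.933 with those of Kcna2 over the 12 populations. Kcnab1 (Kvβ1) was at 288, 337 and 434 CPM in Ntrk2-gated neurons, with differences of 3.77 ± 0.10 (log-mean; adjusted p = 4.64e-67) and 2.15 ± 0.09 (summed). Its range there lay above the range of every other population, and Mrgprd-gated neurons followed with a mean of 186 CPM. On the log-mean scale Kcnab1 was also called higher in Calb1-gated (136 CPM, difference 2.27 ± 0.16), Th-gated (92.2 CPM, 1.86 ± 0.10) and Pvalb-gated neurons (74.7 CPM, 1.32 ± 0.14). The Pvalb-gated call held in 15 of 16 alternative fits (listed with the processing below) and changed sign in 1. The log levels of Kcnab1 had an r of 0.677 with those of Kcna2.

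**Figure D2:**
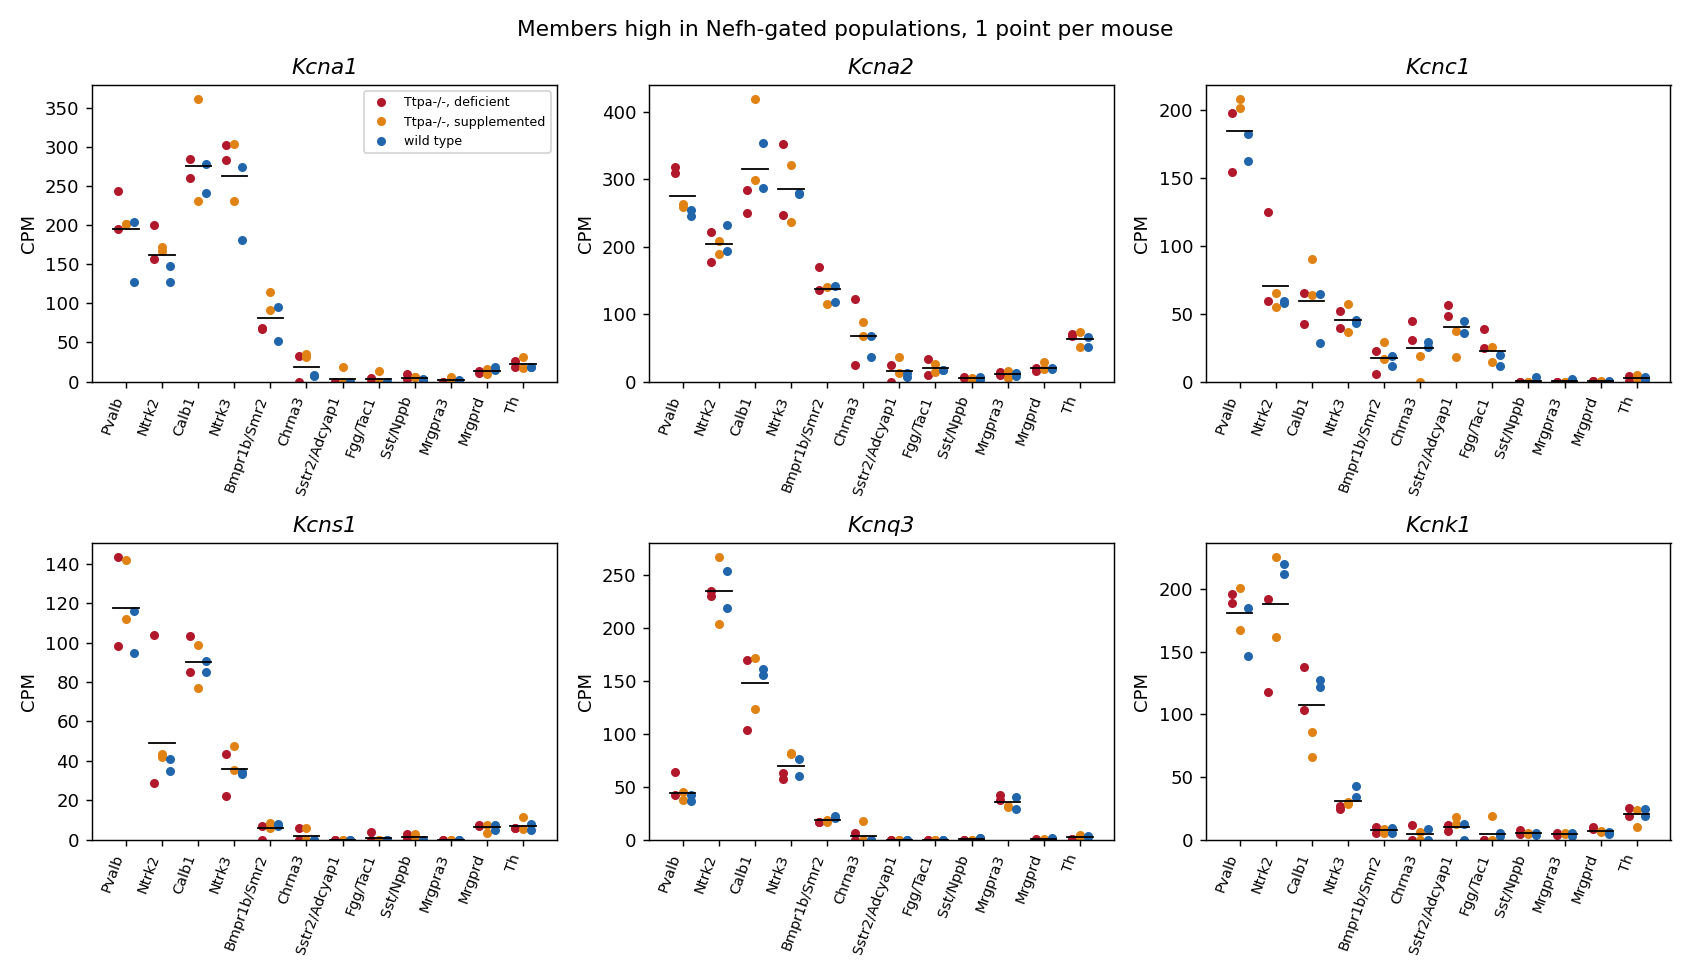
CPM (vertical axis, from 0) of 6 members with high levels in Nefh-gated neurons across the 12 populations. Each point is 1 mouse coloured by group and each line is the mean of 6 mice. Kcnc1 peaks in Pvalb-gated neurons (154 to 208 CPM) and Kcnq3 in Ntrk2-gated neurons (204 to 267 CPM), and points of the 3 groups intermix.

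Kv3 channels open at high voltage and close fast, which allows short spikes at high rates. Kcnc1 (Kv3.1) was at 154, 190 and 208 CPM in Pvalb-gated neurons, above the range of every other population, against a mean of 25.7 CPM in the others. The differences were 4.23 ± 0.12 (log-mean; adjusted p = 6.70e-65) and 3.60 ± 0.12 (summed). In Mrgpra3-gated neurons Kcnc1 had 2 UMIs, or 0.32 CPM. Kcnc4 (Kv3.4), which inactivates and shapes spikes in nociceptors, was instead highest in Ntrk2-gated neurons, at 363, 444 and 560 CPM (3.16 ± 0.09 log-mean, adjusted p = 7.25e-66; 2.47 ± 0.09 summed). It was also higher in the C-type Sstr2/Adcyap1-gated neurons, with a mean of 260 CPM (log-mean difference 2.25 ± 0.16), and lower in Sst/Nppb-gated neurons, where 8 UMIs gave 1.79 CPM (-5.11 ± 0.28). Kcnc2 (Kv3.2) was low in Pvalb-gated, Ntrk3-gated and Calb1-gated neurons, and Kcnc1 was called higher there. It was at 59.9, 113 and 182 CPM in Sstr2/Adcyap1-gated neurons (2.60 ± 0.23 log-mean, adjusted p = 2.14e-19; 2.06 ± 0.22 summed), followed by Chrna3-gated (103 CPM) and Fgg/Tac1-gated neurons (90.6 CPM), whose ranges overlapped. Ntrk3-gated, Pvalb-gated and Calb1-gated neurons held 2.10, 2.67 and 5.34 CPM of Kcnc2. On the log-mean scale both genes were called higher in Ntrk2-gated, Sstr2/Adcyap1-gated, Chrna3-gated and Fgg/Tac1-gated neurons, with 70.1, 40.0, 24.5 and 22.3 CPM of Kcnc1 in that order. The Kcnc1 call held in 9 of 14 alternative fits (listed with the processing below) in Chrna3-gated neurons. In Fgg/Tac1-gated neurons it held in 9 of 15, and each of these 2 calls changed sign in 1 fit.

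Kv4 channels carry the fast A-type current that delays firing, and KChIPs are calcium-binding subunits that bring Kv4 to the surface. Kcnd3 (Kv4.3) was at 284, 290 and 332 CPM in Th-gated neurons (Th marks C fibre low-threshold mechanoreceptors), against a mean of 42.4 CPM in the others. All 6 mice lay above the range of every other population, with differences of 3.68 ± 0.08 (log-mean; adjusted p = 9.82e-81) and 2.84 ± 0.07 (summed). In Sst/Nppb-gated neurons Kcnd3 had 4 UMIs, or 0.86 CPM. Kcnd1 (Kv4.1) varied less, with a highest mean of 142 CPM in Ntrk3-gated neurons (log-mean difference 0.95 ± 0.09) and a lowest of 29.6 CPM in Fgg/Tac1-gated neurons (-1.22 ± 0.23). Kcnd2 (Kv4.2) was too low for the test: it had 15 to 29 UMIs in each Nefh-gated population, 10 in Th-gated neurons and 0 in every other fitted population.

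Of the KChIPs, Kcnip2 and Kcnip4 were both high in Mrgprd-gated and Th-gated neurons, and their log levels had an r of 0.737 over the 12 populations. Kcnip2 (KChIP2) was at 106, 112 and 132 CPM in Mrgprd-gated neurons, 77.2, 98.1 and 122 CPM in Pvalb-gated neurons and 77.3, 93.6 and 111 CPM in Th-gated neurons. These 3 ranges overlapped one another. The log-mean differences were 4.73 ± 0.13 (adjusted p = 1.34e-64), 4.18 ± 0.18 (1.15e-44) and 4.30 ± 0.14 (1.66e-55), and the summed differences 1.73 ± 0.08, 0.80 ± 0.13 and 1.05 ± 0.08. In Mrgpra3-gated neurons Kcnip2 was at 26.1, 45.3 and 60.8 CPM, called higher on the log-mean scale (3.17 ± 0.20; adjusted p = 3.53e-30) but not called on the summed scale (-0.24 ± 0.12; adjusted p = 0.0794), where the sign turned. Chrna3-gated neurons had 0 UMIs of Kcnip2, below a limit of 4.10 CPM.

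Kcnip4 (KChIP4) was highest in Mrgprd-gated neurons at 277, 331 and 356 CPM, above the range of every other population (3.11 ± 0.08 log-mean, adjusted p = 1.48e-72; 1.74 ± 0.07 summed). Th-gated neurons had 169, 180 and 216 CPM of it (2.09 ± 0.09 log-mean, adjusted p = 9.57e-47; 0.35 ± 0.08 summed). Kcnip3 (KChIP3, also known as the transcriptional repressor DREAM) was highest in Ntrk3-gated neurons at 216, 239 and 280 CPM (2.10 ± 0.08 log-mean, adjusted p = 6.29e-51; 2.19 ± 0.09 summed) and lowest in Sst/Nppb-gated neurons at 19.4 CPM. Kcnip1 (KChIP1) was at 28.3, 58.4 and 63.3 CPM in Bmpr1b/Smr2-gated neurons, against a mean of 7.95 CPM in the others (3.61 ± 0.21 log-mean, adjusted p = 6.67e-32; 3.50 ± 0.19 summed). Thus the highest means of the 4 KChIP genes stood in 3 different populations, and for Kcnip1, Kcnip2 and Kcnip3 the range overlapped that of the next population. Over the 12 populations the log levels of Kcnd3 had an r of -0.151 with Kcnip2, 0.443 with Kcnip3 and 0.006 with Kcnip4, and those of Kcnd1 had an r of 0.699 with Kcnip3.

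**Figure D3:**
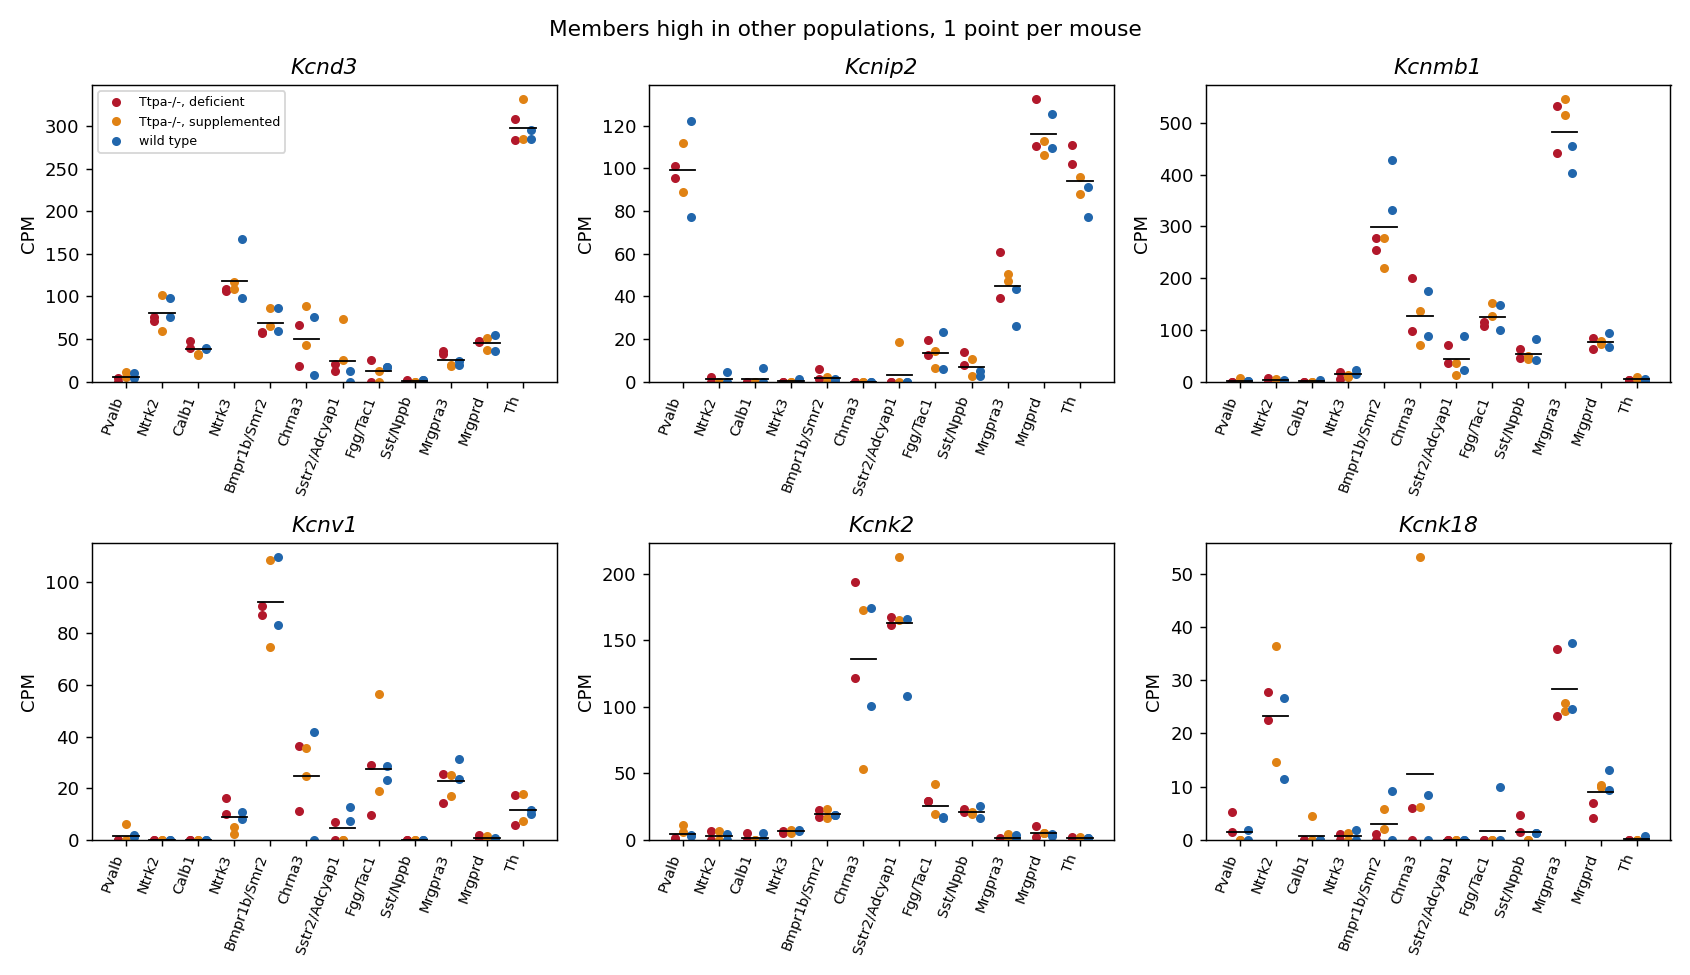
CPM (vertical axis, from 0) of 6 members with high levels in C-type or Bmpr1b/Smr2-gated neurons across the 12 populations. Each point is 1 mouse coloured by group and each line is the mean of 6 mice. Kcnd3 peaks in Th-gated (284 to 332 CPM), Kcnmb1 in Mrgpra3-gated (402 to 546 CPM) and Kcnv1 in Bmpr1b/Smr2-gated neurons (74.8 to 110 CPM).

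Kv2 channels carry a slow delayed-rectifier current. Kcnb2 (Kv2.2) was at 568, 644 and 735 CPM in Pvalb-gated neurons (0.89 ± 0.05 log-mean, 0.87 ± 0.06 summed) and was lower in Th-gated neurons, at 114, 125 and 135 CPM (-1.52 ± 0.06; adjusted p = 9.05e-51). The silent subunits Kcns1 (Kv9.1), Kcns3 (Kv9.3) and Kcnv1 (Kv8.1) form no channel alone and modify Kv2 channels. Each of them was near 0 in some populations. Kcns1 was at 94.5, 114 and 143 CPM in Pvalb-gated neurons (4.72 ± 0.17 log-mean, adjusted p = 2.49e-52; 3.08 ± 0.14 summed) and at 77.0, 88.0 and 104 CPM in Calb1-gated neurons (4.18 ± 0.24, adjusted p = 4.19e-32; 2.07 ± 0.20), and these 2 ranges overlapped. It had 0 UMIs in Mrgpra3-gated and in Sstr2/Adcyap1-gated neurons, the second with a limit of 4.57 CPM.

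Kcns3 was at 108, 134 and 179 CPM in Ntrk2-gated neurons (2.34 ± 0.12 log-mean, adjusted p = 1.55e-36; 2.08 ± 0.13 summed), and Th-gated neurons held 3 UMIs of it, or 0.36 CPM (-6.23 ± 0.30; adjusted p = 2.09e-41). Kcnv1 was at 74.8, 88.9 and 110 CPM in Bmpr1b/Smr2-gated neurons, above the range of every other population, against a mean of 9.32 CPM in the others (4.88 ± 0.20 log-mean, adjusted p = 1.20e-43; 3.53 ± 0.16 summed). Fgg/Tac1-gated neurons had 9.62, 25.8 and 56.4 CPM of Kcnv1, a wide range over the mice (2.82 ± 0.42, adjusted p = 1.31e-08; 0.92 ± 0.34 summed, adjusted p = 0.0262). Calb1-gated, Ntrk2-gated and Sst/Nppb-gated neurons had 0 UMIs of it. The 3 silent subunits therefore had their highest means in 3 different populations. For Kcns3 the Calb1-gated range (72.4 to 156 CPM) overlapped the Ntrk2-gated range, and Kcns1 also overlapped in Calb1-gated neurons, as given above. Their log levels had an r of -0.113, 0.386 and 0.170 with those of Kcnb2 (Kcns1, Kcns3 and Kcnv1 in that order).

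Kv7 channels carry the M-current, a slow brake on repetitive firing. Kcnq3 (Kv7.3) was at 204, 233 and 267 CPM in Ntrk2-gated neurons (Ntrk2 marks Aδ low-threshold mechanoreceptors), above the range of every other population and against a mean of 29.4 CPM in the others. The differences were 5.52 ± 0.14 (log-mean; adjusted p = 4.17e-66) and 3.41 ± 0.12 (summed). Calb1-gated neurons followed at 104, 159 and 172 CPM (4.70 ± 0.20, adjusted p = 3.51e-44; 2.13 ± 0.15 summed) and Ntrk3-gated neurons at 57.0, 69.4 and 82.2 CPM (3.58 ± 0.18, adjusted p = 7.22e-38; 1.23 ± 0.15 summed). Fgg/Tac1-gated and Sstr2/Adcyap1-gated neurons had 0 UMIs of Kcnq3. Kcnq5 (Kv7.5) did not follow it, with an r of -0.045. It was at 21.8, 49.2 and 59.5 CPM in Ntrk3-gated (3.59 ± 0.20, adjusted p = 2.32e-34; 2.69 ± 0.20 summed), 21.0, 44.0 and 59.9 CPM in Sstr2/Adcyap1-gated (3.40 ± 0.41, adjusted p = 4.67e-12; 1.98 ± 0.38 summed) and 0, 47.2 and 55.5 CPM in Chrna3-gated neurons (3.59 ± 0.38, adjusted p = 1.28e-14; 2.15 ± 0.36 summed). These 3 ranges overlapped, and 1 mouse had no UMI of Kcnq5 in Chrna3-gated neurons, the population with as few as 13 cells in a mouse.

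Kv11 (ERG) channels carry a current that damps repeated spiking. Kcnh2 (Kv11.1) was at 90.9, 117 and 133 CPM in Pvalb-gated neurons (4.23 ± 0.15 log-mean, adjusted p = 4.50e-54; 2.92 ± 0.13 summed) and 70.9, 109 and 155 CPM in Calb1-gated neurons (3.93 ± 0.21, adjusted p = 4.66e-36; 2.24 ± 0.20 summed), with overlapping ranges. Sst/Nppb-gated neurons had 1 UMI of it. Kcnh6 (Kv11.2) was too low for the test, with 28 UMIs (3.33 CPM) in Th-gated neurons as its highest level.

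K2P channels set the resting leak. The 2 that carry the names TREK-1 (Kcnk2), a mechano- and temperature-gated channel, and TASK-1 (Kcnk3), an acid-sensitive channel, were both high in Sstr2/Adcyap1-gated and Chrna3-gated neurons. Kcnk2 was at 108, 166 and 212 CPM in the Sstr2/Adcyap1-gated (4.35 ± 0.24 log-mean, adjusted p = 1.36e-34; 4.04 ± 0.24 summed) and 53.1, 147 and 194 CPM in the Chrna3-gated neurons (4.23 ± 0.23, adjusted p = 1.32e-34; 3.93 ± 0.25 summed). Kcnk3 was at 69.8, 99.4 and 257 CPM in the Sstr2/Adcyap1-gated (3.85 ± 0.31, adjusted p = 6.42e-22; 3.11 ± 0.27 summed) and 33.5, 121 and 236 CPM in the Chrna3-gated neurons (4.26 ± 0.26, adjusted p = 3.92e-30; 3.53 ± 0.25 summed). The mice spread widely in these 2 small populations, and the ranges overlapped for both genes. Kcnk2 and Kcnk3 parted elsewhere: Sst/Nppb-gated neurons had 16.7, 20.9 and 25.6 CPM of Kcnk2 (1.44 ± 0.22, adjusted p = 5.90e-09; 1.17 ± 0.19 summed), which was below the mean of 33.4 CPM of the other populations, and Calb1-gated neurons had 65.0 CPM of Kcnk3 (3.20 ± 0.26; 2.42 ± 0.22 summed).

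Kcnk1 (TWIK-1) was at 118, 202 and 225 CPM in Ntrk2-gated neurons (3.74 ± 0.12 log-mean, adjusted p = 3.96e-58; 2.78 ± 0.11 summed) and averaged 181 CPM in Pvalb-gated neurons, whose range overlapped. Kcnk12 (THIK-2), which gives little current at the surface, was at 45.0, 55.1 and 62.0 CPM in Mrgprd-gated (3.22 ± 0.13, adjusted p = 1.82e-47; 2.36 ± 0.11 summed), 37.8, 42.5 and 49.0 CPM in Sst/Nppb-gated (2.69 ± 0.18, adjusted p = 2.61e-28; 1.20 ± 0.14 summed) and 0, 31.6 and 46.2 CPM in Fgg/Tac1-gated neurons (2.19 ± 0.32, adjusted p = 7.39e-09; 0.73 ± 0.29 summed). Kcnk12 was not high in every C-type population: Th-gated neurons had 3 UMIs of it, or 0.47 CPM (log-mean difference -4.17 ± 0.44, adjusted p = 1.06e-15), and it was not called in Chrna3-gated or Sstr2/Adcyap1-gated neurons. On the log-mean scale Kcnk1 was called higher in all 4 Nefh-gated populations and in Th-gated neurons (20.3 CPM, 0.35 ± 0.16). Its Th-gated call held in only 3 of 16 alternative fits (listed with the processing below) and changed sign in 1. The Ntrk3-gated call held in 14 of 16 and changed sign in 1. Kcnk18 (TRESK), a calcineurin-activated channel linked to migraine in people, was at 23.2, 25.1 and 37.1 CPM in Mrgpra3-gated neurons (4.03 ± 0.25, adjusted p = 5.68e-31; 2.90 ± 0.20 summed) and 11.4, 24.6 and 36.4 CPM in Ntrk2-gated neurons (3.33 ± 0.35, adjusted p = 5.53e-15; 1.66 ± 0.29 summed), with overlapping ranges. Kcnk4 (TRAAK) was too low for the test, with 35 UMIs in Mrgpra3-gated and 10 in Chrna3-gated neurons.

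BK channels open with calcium and depolarisation. Their pore gene Kcnma1 averaged 59.9 CPM in Mrgprd-gated neurons, with 53.9, 59.8 and 65.1 CPM over the mice (2.20 ± 0.11 log-mean, adjusted p = 1.69e-40; 1.83 ± 0.10 summed), and 57.5 CPM in Pvalb-gated neurons. In Sst/Nppb-gated neurons it had 1 UMI. Its accessory subunit gene Kcnmb1 (BK β1), which raises calcium sensitivity, had another order. It was at 402, 485 and 546 CPM in Mrgpra3-gated neurons, against a mean of 67.9 CPM in the others (4.67 ± 0.09, adjusted p = 7.46e-84; 3.17 ± 0.08 summed), and 219, 277 and 429 CPM in Bmpr1b/Smr2-gated neurons (3.84 ± 0.12, adjusted p = 3.62e-61; 1.74 ± 0.11 summed). Fgg/Tac1-gated neurons had 99.1, 121 and 153 CPM (2.28 ± 0.22, adjusted p = 7.62e-17), which was not called on the summed scale (0.16 ± 0.14; adjusted p = 0.421). Calb1-gated neurons had 1 UMI of Kcnmb1. The log levels of Kcnma1 and Kcnmb1 had an r of -0.374, and Kcnmb4 (BK β4), highest in Bmpr1b/Smr2-gated neurons at 23.9 CPM (1.52 ± 0.27 log-mean), had an r of 0.209 with Kcnma1. Kcnmb1 (mm10 chromosome 11, 33963013 to 33973641, plus strand) lies within Kcnip1 on the minus strand, and the sources used here give no word on strand in the counting, so UMIs of the 2 genes could have been mixed. Mrgpra3-gated neurons held 482 CPM of Kcnmb1 and 4.53 CPM of Kcnip1, while both were high in Bmpr1b/Smr2-gated neurons (298 and 53.3 CPM). On the log-mean scale both were also called higher in Sstr2/Adcyap1-gated, Chrna3-gated and Fgg/Tac1-gated neurons. For Kcnmb1 the Fgg/Tac1-gated call was absent on the summed scale, as given above. Its Sstr2/Adcyap1-gated call held in 7 of 15 alternative fits and changed sign in 1.

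SK channels open with calcium alone and give an afterhyperpolarisation that spaces spikes. Kcnn1 (SK1) was at 28.7, 34.1 and 38.3 CPM in Sst/Nppb-gated neurons (Nppb marks a set of itch neurons), against a mean of 9.38 CPM in the others (2.32 ± 0.20 log-mean, adjusted p = 1.25e-20; 1.38 ± 0.16 summed). On the log-mean scale 15 of the 34 tested members were called lower in Sst/Nppb-gated and 15 in Th-gated neurons, where 28.6% and 30.8% of all tested genes were lower. Kcnn2 (SK2) was at 17.3, 28.1 and 39.6 CPM in Bmpr1b/Smr2-gated neurons (2.42 ± 0.24, adjusted p = 4.32e-16; 2.09 ± 0.24 summed). The sodium-activated channel gene Kcnt1 (Slack) averaged 79.5 CPM in Mrgpra3-gated and 78.3 CPM in Mrgprd-gated neurons (1.63 ± 0.10 and 1.72 ± 0.09 log-mean) and was lower in Pvalb-gated neurons, at 11.3 CPM (-1.46 ± 0.21). Kcnj3 (GIRK1), a rectifier opened by G protein subunits, averaged 63.2 CPM in Calb1-gated and 51.9 CPM in Fgg/Tac1-gated neurons (1.77 ± 0.22 and 1.71 ± 0.25), with 4 UMIs in Th-gated neurons. Kcnj11, the pore of the ATP-sensitive channel, had 1 UMI in all deposited cells and none in the 12 populations.

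For 6 members (Kcnab1, Kcnc1, Kcnd3, Kcnip4, Kcnq3 and Kcnv1) the range over mice in the highest population lay above the ranges of all other populations, and for the other 28 tested members the highest population overlapped at least the next. The share of all genes with such a clear highest population was not computed. Of the tested members 5 were highest in Ntrk2-gated neurons, 4 each in Bmpr1b/Smr2-gated, Calb1-gated, Mrgprd-gated and Pvalb-gated, 3 each in Mrgpra3-gated and Ntrk3-gated, 2 each in Chrna3-gated, Sstr2/Adcyap1-gated and Th-gated and 1 in Sst/Nppb-gated neurons. The log-mean scale has a limit for members at 0: of the 10 pairs with 0 UMIs only 2 were called lower on it, and all 10 were called lower on the summed scale. On the log-mean scale 36 of the 179 pairs called higher had a mean CPM below the plain mean of the other populations.

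The list of 63 other potassium channel genes and partners gave 15 genes that could be tested over the populations. Of their 180 pairs 69 (38.3%) were called higher and 41 (22.8%) lower on the log-mean scale. The smallest p-values were those of Cntnap2, which clusters Kv1 channels beside the nodes, in Pvalb-gated neurons (3.28 ± 0.06; adjusted p = 5.05e-88) and of Dpp10, a Kv4 partner, in Th-gated neurons (2.65 ± 0.07; adjusted p = 2.02e-69).

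The study's design asks whether the groups differ. No member passed an adjusted p of 0.05 (edgeR quasi-likelihood test) in all gated neurons, where 37 of the 38 members were among 13380 genes tested: 0 members were called for deficient against wild type, 0 for supplemented against wild type and 0 for deficient against supplemented mice. Over all genes 0% were called in each of these comparisons, and DESeq2 and limma-voom also called 0 members. At an unadjusted p under 0.05 stood 4, 3 and 0 of the 37 members in that order of comparisons, and 3.89%, 3.81% and 2.56% of all tested genes. The median log2 difference of the members was -0.14, -0.06 and -0.05, and that of all tested genes -0.01, -0.01 and -0.00. With 2 mice a group the biological coefficient of variation was 12.3% and the median SE of a member's log2 difference was 0.16, which limits what could pass after adjustment over 13380 genes. The comparisons share mice, so their values are not independent, and nothing in the labels says whether the mice came from separate litters.

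**Figure D4:**
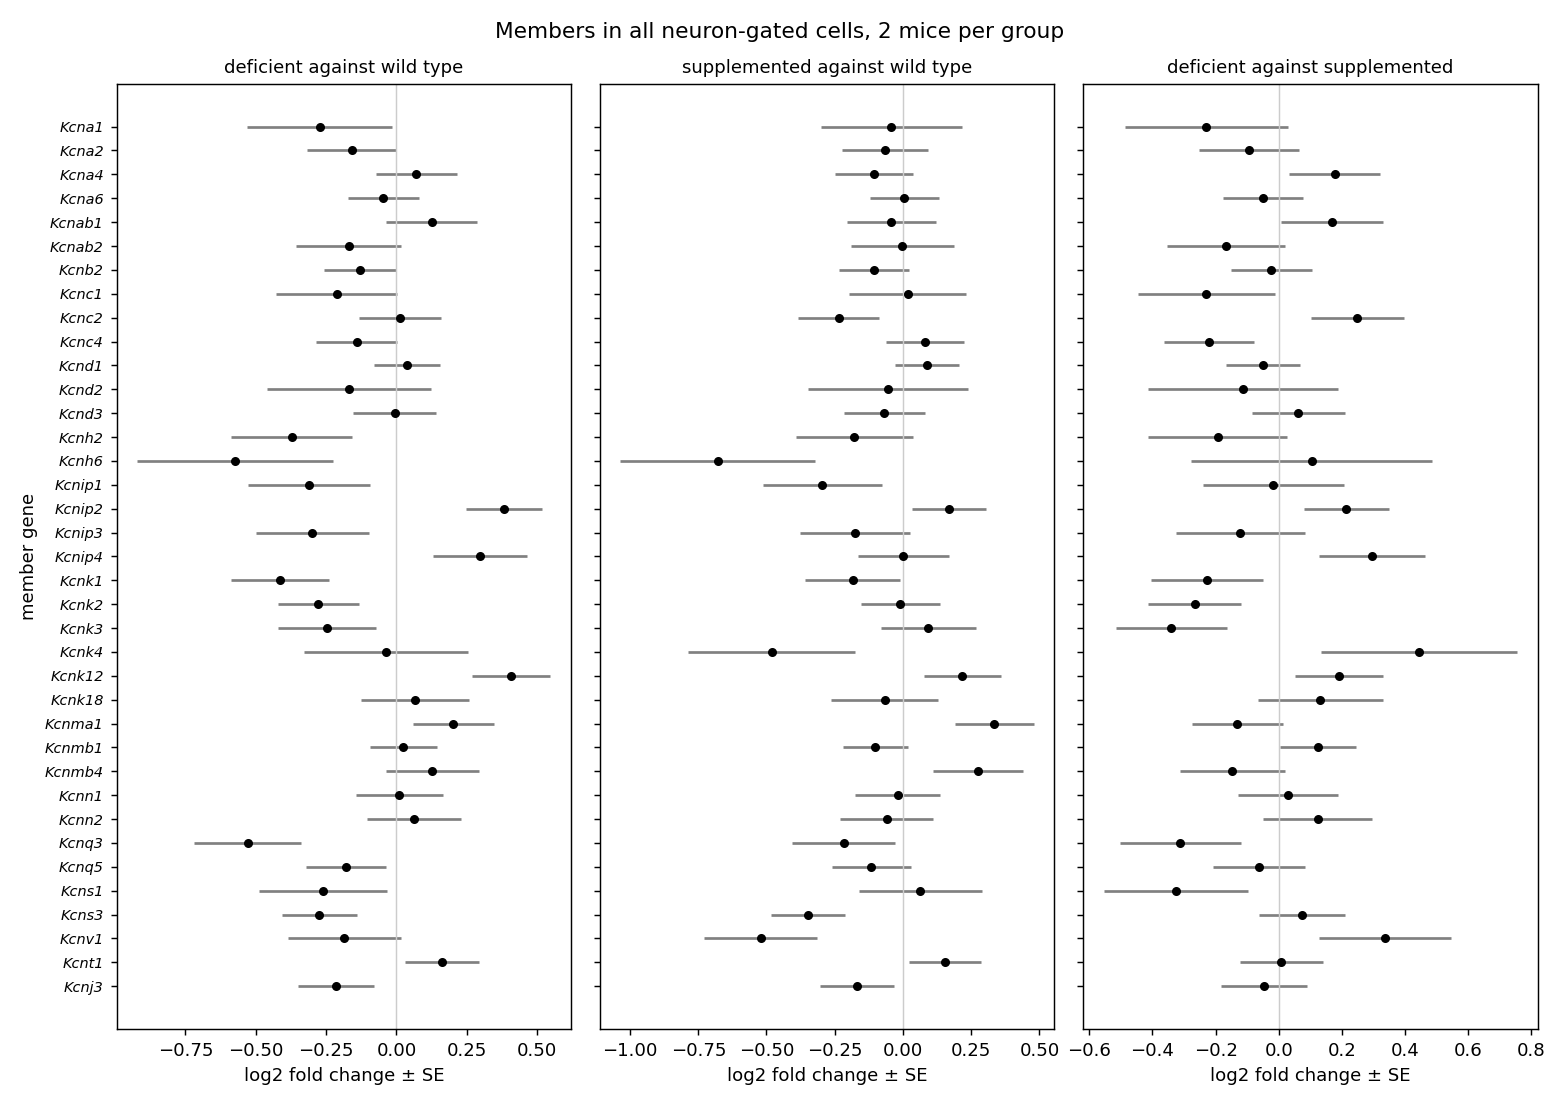
Log2 differences in all gated neurons of 37 potassium channel genes (rows) for 3 comparisons: deficient against wild type, supplemented against wild type and deficient against supplemented mice. Points are edgeR estimates, bars are ± 1 SE and n is 2 mice a group. No member passed an adjusted p of 0.05.

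Of the members with the smallest p for deficient against wild type mice, Kcnk12 had 24.5 and 23.2 CPM in deficient mice, 22.9 and 19.7 CPM in supplemented mice and 17.1 and 18.5 CPM in wild type mice. Kcnip2 had 63.6 and 53.1 CPM in deficient mice, 54.6 and 47.7 CPM in supplemented mice and 44.5 and 44.2 CPM in wild type mice. Both genes had both deficient mice above both wild type mice, without overlap. Kcnq3 had 20.2 and 25.3 CPM in deficient mice, 24.7 and 32.7 CPM in supplemented mice and 28.2 and 37.1 CPM in wild type mice, so both deficient mice lay below both wild type mice. Such separation was not confined to these 3 members. Kcnip4, Kcnma1, Kcnn2 and Kcnt1 also had both deficient mice above both wild type mice. Kcnb2, Kcnd2, Kcnh6, Kcnj3, Kcnk1, Kcnk2, Kcnq5 and Kcns3 had both below, while the other members overlapped. With so few mice a group this order can arise by chance, and its share among all genes was not computed. The log2 differences were 0.41 ± 0.14 for Kcnk12, 0.38 ± 0.13 for Kcnip2 and -0.53 ± 0.19 for Kcnq3, and each had an adjusted p of 0.991 in the edgeR test. In sums over all neurons a change in the mix of neurons and in RNA per neuron cannot be told apart. Mrgprd-gated neurons, in which Kcnk12 and Kcnip2 were high, were 6.65% and 7.13% of gated neurons in deficient mice and 4.14% and 4.10% in wild type mice. The 4 Nefh-gated populations, in which Kcnq3 was high, were 4.44% and 9.10% in deficient mice and 7.48% and 12.8% in wild type mice, which overlap, and the part of these shares in the 3 values was not tested.

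Within populations these differences were uneven. In Mrgprd-gated neurons, deficient against wild type, Kcnk12 differed by 0.08 ± 0.19 and Kcnip2 by 0.00 ± 0.15. Kcnk12 differed by 0.26 ± 0.31 in Mrgpra3-gated and -0.01 ± 0.27 in Sst/Nppb-gated neurons. Kcnip2 differed by 0.60 ± 0.26 in Mrgpra3-gated, 0.30 ± 0.19 in Th-gated and -0.12 ± 0.25 in Pvalb-gated neurons. Kcnq3 differed by -0.05 ± 0.22 in Ntrk2-gated and -0.16 ± 0.24 in Ntrk3-gated neurons, and by 0.21 ± 0.32 in Pvalb-gated and 0.20 ± 0.26 in Mrgpra3-gated neurons, where its sign turned. Each of these values had an adjusted p of 0.9936 to 0.99994 in the edgeR test.

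For supplemented against wild type mice, Kcns3 had 35.2 and 36.4 CPM in supplemented mice and 41.1 and 47.8 CPM in wild type mice (-0.35 ± 0.14), with 35.9 and 38.2 CPM in deficient mice. Kcnv1 had 10.5 and 13.6 CPM in supplemented mice and 18.2 and 15.7 CPM in wild type mice (-0.52 ± 0.21), with 12.1 and 17.7 CPM in deficient mice. Kcnma1 had 36.4 and 30.3 CPM in supplemented mice and 27.7 and 23.9 CPM in wild type mice (0.33 ± 0.14), with 30.3 and 29.5 CPM in deficient mice. In all 3 the 2 groups did not overlap, and each had an adjusted p of 0.9999 in the edgeR test. The 3 were picked by their p. Other members, Kcnip2, Kcnk12, Kcnd1 and Kcnt1 among them, also had no overlap, and the share of all genes without overlap was not computed. The satellite glia markers were higher in both supplemented mice than in the other 4, as given above, and their part in these values was not tested. Within populations the value of Kcns3 was below 0 in 6 of the 7 populations where it could be tested (-0.48 to 0.29). Kcnv1 had a value of -0.33 ± 0.35 in Mrgpra3-gated neurons and turned its sign in Th-gated (0.13 ± 0.47) and Bmpr1b/Smr2-gated neurons (0.03 ± 0.28). The values of Kcnma1 lay between -0.39 ± 0.70 in Bmpr1b/Smr2-gated and 0.63 ± 0.48 in Ntrk3-gated neurons, with 4 of 6 populations above 0. None of these passed.

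For deficient against supplemented mice, which share the genotype and age, Kcnk3 had 17.9 and 21.1 CPM in deficient mice and 23.3 and 27.1 CPM in supplemented mice (-0.34 ± 0.18), with 19.6 and 26.5 CPM in wild type mice. Kcnk2 had 22.4 and 26.7 CPM in deficient mice and 30.1 and 30.2 CPM in supplemented mice (-0.27 ± 0.15), with 31.4 and 27.9 CPM in wild type mice. Kcnip4 had 184 and 168 CPM in deficient mice and 167 and 125 CPM in supplemented mice (0.30 ± 0.17), with 162 and 122 CPM in wild type mice. The groups did not overlap in Kcnk2 and Kcnk3, and in Kcnip4 the lower deficient mouse stood just above the higher supplemented mouse. Adjusted p was 0.99997 for each in the edgeR test. These members too were picked by their p, and others, Kcnc4 and Kcnmb4 among them, also had no overlap. No share of all genes without overlap was computed. Within populations the value of Kcnip4 was above 0 in all 8 populations where it could be tested (0.04 to 1.49), which come from the same mice. Kcnk3 had -0.91 ± 0.48 in Sstr2/Adcyap1-gated, -0.34 ± 0.42 in Ntrk2-gated and -0.43 ± 0.70 in Ntrk3-gated neurons and turned to 0.27 ± 0.34 in Pvalb-gated neurons. Kcnk2 had -0.26 ± 0.38 in Sstr2/Adcyap1-gated and -0.03 ± 0.61 in Bmpr1b/Smr2-gated neurons and 0.06 ± 0.42 in Sst/Nppb-gated neurons. None of these passed.

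**Figure D5:**
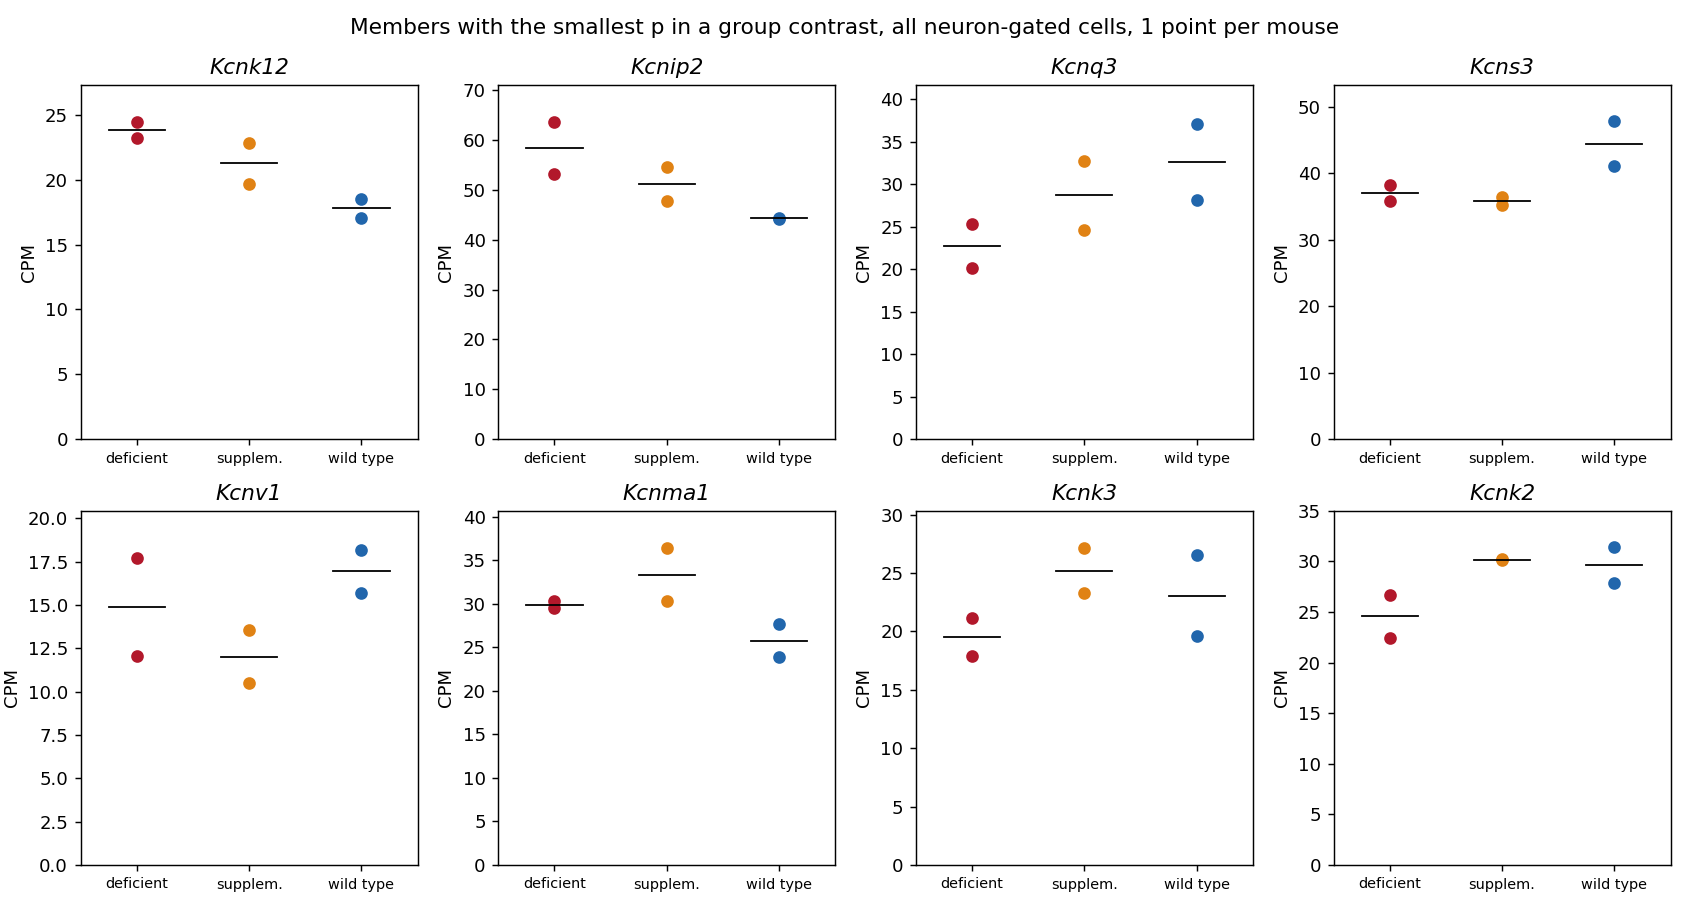
CPM in all gated neurons (vertical axes) of members with the smallest p in a group comparison, by group from left to right: deficient, supplemented, wild type. Each point is 1 mouse and each line is the mean of 2 mice. Kcnq3 lies at 20.2 and 25.3 CPM in deficient mice and 28.2 and 37.1 CPM in wild type mice.

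Within the 10 populations with enough cells in every mouse, 188 tests of members were made in each comparison and 0 were called by edgeR's quasi-likelihood test. Over all genes 0.0239% of the 62854 tests were called for deficient against wild type, 0.0668% for supplemented against wild type and 0.0111% for deficient against supplemented mice. At an unadjusted p under 0.05 stood 8, 6 and 3 of the 188 tests, and 3.18%, 4.26% and 3.71% of the tests of all genes. The members' median size of difference was 0.19, 0.21 and 0.20 log2 units, beside a median SE of 0.28, 0.30 and 0.31.

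Among these tests, chosen after their values were seen, Kcnmb1 in Bmpr1b/Smr2-gated neurons had 254 and 277 CPM in deficient mice, 219 and 278 CPM in supplemented mice and 331 and 429 CPM in wild type mice. All 4 Ttpa-/- mice were below both wild type mice, with log2 differences of -0.54 ± 0.21 for deficient (adjusted p = 0.999) and -0.61 ± 0.21 for supplemented against wild type (adjusted p = 0.908). Both comparisons use the same wild type mice. Kcnab1 in Pvalb-gated neurons had 95.5 and 110 CPM in deficient mice and 39.1 and 62.5 CPM in supplemented mice (0.91 ± 0.31; adjusted p = 0.99995). Wild type mice had 88.8 and 52.7 CPM of it there, so 1 of them lay between the 2 supplemented mice.

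Of the 63 other potassium channel genes 34 could be tested in all neurons and 0 were called in any comparison (edgeR). The smallest p-values, both for deficient against wild type, were those of Kcnk13 (THIK-1; 0.53 ± 0.17, adjusted p = 0.991) and Kcng1 (a silent subunit; -1.01 ± 0.46, adjusted p = 0.991).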

How the data were processed

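The values used were UMI counts that the authors deposited as 1 table of 27998 genes and 21685 cells from 3′ v2 droplet libraries of 6 mice. Per the submitters' processing notes, the tools were Cell Ranger 2.0.1, bcl2fastq 2.17.1.14, limma 3.32.10 and Seurat 2.3.0, with mm10 as the genome build. Whether counting used strand is not stated there. Cells were mapped to mice by the numbers in the table's cell names, and mice, not cells, were the replicates.

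A cell needed 500 genes and no more than 20% mitochondrial UMIs (27 failed), and 634 doublets were removed with the scrublet method in scanpy 1.11.5 at an expected rate of 0.8% per 1000 cells. A cell was gated as a neuron with a UMI in at least 4 of 12 pan-neuronal genes. UMIs were summed per mouse and population, with 10 or more cells in every mouse for the comparison of populations and 20 or more for groups. CPM are UMIs per 1000000 UMIs of that sum; every level is given per gene and was not compared between genes. edgeR 4.0.16 in R 4.3.3 was fitted to all genes passing its filter (TMM scaling, quasi-likelihood F test, Benjamini-Hochberg adjustment over all of them, threshold 0.05). Groups were fitted with 1 mean each over 6 mice; populations with mouse as a block. SE is the log2 difference divided by the root of F. Limits for 0 UMIs are 3 UMIs in the population's sum, and they and CPM cover counting error only. Without labels of separate litters, p-values of the group comparisons measure the spread between these mice. Those of the population comparisons measure the spread of population sums left after the mouse term, again in these mice only.

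The members and lists were chosen with earlier results of these data known, the marker gates were set after marker levels were seen, and the comparison with summed populations was added after the data were seen. Named were, per population, up to 3 members with the largest log-mean difference among those called higher, and, per group comparison, the 3 with the smallest p where none passed; members outside this were chosen after their values were seen. Alternatives were RLE scaling, no low-count filter, DESeq2 1.42.0, limma-voom (limma 3.58.1), each mouse left out, sex as a term, a stricter cell filter (1000 genes, 10% mitochondrial), doublets kept, a stricter gate and thinned sums. The fits were tested on simulated counts with known changes.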

Additional observations from a re-analysis of the deposited data

Results flagged for a closer look

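Of 34 sets of 6 mice tested, each a member in its highest population, 1 held a mouse that stood apart from the other 5. Kcnj3 in Calb1-gated neurons was at 90.4 CPM (11 UMIs) in supplemented mouse 670, whereas the other 5 mice lay between 49.8 and 64.7 CPM. The gap to the nearest mouse was 0.632 of the whole range. Chance gives such a mouse in about 1 in 20 sets.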

How the results depend on the processing

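For groups, 0 members were called in all neurons and in the 10 populations under every alternative run, sex as a term and both diets joined against wild type included. The log2 differences of the named members kept their sign, with ranges of 0.31 to 0.52 for Kcnk12, 0.27 to 0.49 for Kcnip2 and -0.72 to -0.32 for Kcnq3 (deficient against wild type). No paired analysis was possible because the labels number no replicates, and the numbers 1 and 2 used here follow accession order; sex, 1 female and 1 male a group, was fitted as a term instead.

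For populations, 179 pairs were called higher and 115 lower. Leaving out each mouse in turn gave 171 to 178 higher and 93 to 107 lower. The stricter marker gate left 8 populations and 118 higher. Thinning to the smallest sum of a mouse gave 56 higher and 25 lower, with fewer UMIs. Against the summed others, added after the data were seen, 130 were higher and 211 lower, and Kcnip2 in Mrgpra3-gated neurons turned to -0.24; the cause was not tested. Of the 294 called pairs 26 changed sign against the summed others, 3 under the stricter gate, and 29 under some alternative. RLE, no filter, DESeq2, limma-voom, doublets kept, the stricter cell filter and leaving out both shallow libraries stayed within 1.5 times both counts. Of the 294 called pairs 180 were called in the same direction under every alternative that could test them. Small populations limit depth: as few as 13 Chrna3-gated cells in a mouse.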

Other observations

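The 69 Trpm8/Foxp2-gated neurons, whose gate uses the cold channel Trpm8, were too few for a fit (6 to 20 cells in a mouse) and are given by level. Kcnab2 stood at 596 ± 199 CPM (SD, n = 6 mice; 115 UMIs) and Kcna2 at 343 ± 183 CPM (56 UMIs), with 163, 278 and 588 CPM as the lowest, median and highest mouse. Kcnk2, the TREK-1 channel, stood at 306 ± 115 CPM (52 UMIs), with 231, 252 and 530 CPM over the mice.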
